A study of Mus musculus with 30 samples.

Results

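Stool bacteria of female mice lacking Gpr15l (Gpr15l-/-, labelled ko and called KO below) were compared between weaning and the end of a period in cages shared with wild-type (WT) mice. The comparison rests on 10 of the 30 libraries of the series: libraries 1 to 5 were from KO stool at weaning, at about 4 weeks of age, and libraries 11 to 15 from KO stool after 4 to 5 weeks in mixed-genotype cages. The 10 libraries of WT mice from the same 2 times (6 to 10 and 16 to 20) served as the reference for what changed in the other genotype. Each library holds counts of V4 16S rRNA gene reads per sequence variant, a variant being a distinct amplicon sequence that the authors named down to genus where possible. Of 3697 variants in the table, 378 had reads in the 10 KO libraries, 2 of them mitochondrial, which left 376 bacterial variants with 80 genus names and 40 family names. The labels give no animal, litter or cage for a library, so libraries at the 2 times were not paired. Mice became older and changed cage mates between the same samples, so age and housing cannot be told apart. P-values below measure the spread between libraries, and mice that shared a cage are not known to vary independently.

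The Gpr15l gene product is an epithelial peptide of gut and skin that binds GPR15, a receptor on lymphocytes. Mice eat faeces, so cage mates exchange gut bacteria, and co-housing is the usual way to expose mice of different genotypes to each other's microbes. The mouse gut community itself is still forming at weaning, when milk gives way to plant fibre. It is dominated by Bacteroidota, a phylum whose members break down polysaccharides, and by Firmicutes, whose spore-forming Clostridia ferment fibre and amino acids to short-chain fatty acids.

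Bacterial reads numbered 10491 to 34075 at weaning and 16086 to 41137 after co-housing, so a variant with 0 reads could still hold up to 0.0286% of the smallest library (3 counts, counting error only). No library repeated another, with chi-square per degree of freedom between 35.7 and 249 over the 20 pairs within groups. Reads of chloroplasts, of no kingdom and of the 5 skin genera searched were at 0 in all 10 libraries. This does not by itself identify stool, and read filters used before deposition were not given. Of 10 reagent genera searched, 2 had reads, together at most 0.419% of a library. Pseudomonas, a common reagent contaminant, held at most 0.319%. Mitochondrial reads, left out of all shares, were 0.653% of library 5 and 0.255 to 0.661% of libraries 12 to 15, but at most 0.0709% of libraries 1 to 4 and 0.0392% of library 11. Their part in the results was not tested.

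Libraries 1, 5 and 11 stood apart from their group. Library 1, at weaning, held 54 variants against 113 to 133 in the other 4 libraries at weaning. Its mean Bray-Curtis distance to its own group was 0.749, on a scale where 0 is the same composition and 1 is none shared. Library 5, also at weaning, was closer to the co-housed KO libraries (mean distance 0.445) than to the other weaning libraries (0.606), and its nearest KO library was library 12. Library 11, after co-housing, was as far from its own group (0.547) as from the weaning group (0.538), and its nearest KO library was library 2. The mitochondrial reads of libraries 5 and 11 were likewise at the level of the other group. Whether these 2 samples were exchanged was not tested, and the labels were kept as given, so every group mean below rests on them. Results were therefore also computed without libraries 1, 5 and 11, a choice made after these distances were seen.

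**Figure D1:**
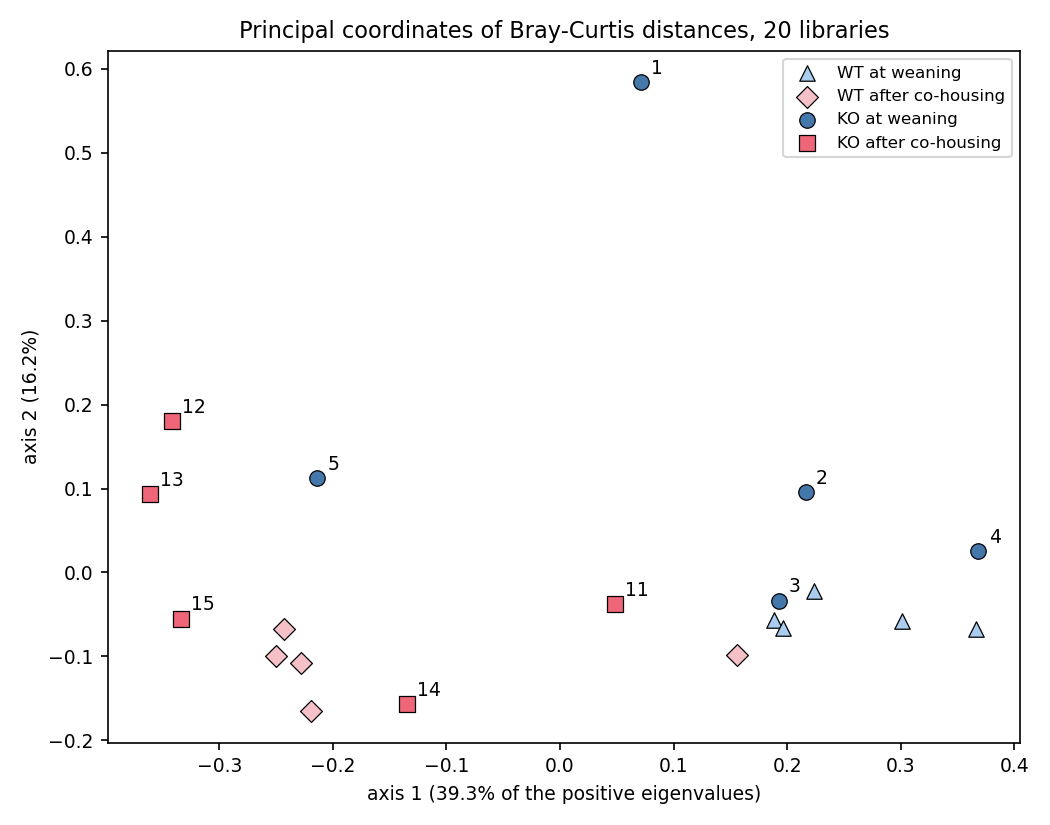
Principal coordinates of Bray-Curtis distances between 20 libraries, each point 1 library and each axis labelled with its percent of the positive eigenvalues; numbers mark the KO libraries. KO libraries 2, 3 and 4 at weaning lie at the right beside the WT weaning libraries, KO libraries 12 to 15 lie left of 0 on axis 1, and libraries 1, 5 and 11 lie away from their groups.

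The composition of KO stool differed between weaning and co-housing. Time and housing together accounted for 27.1% of the squared Bray-Curtis distances among the 10 libraries, against a mean of 11.1% over all ways to split them 5 against 5 (exact permutation p = 0.0317, smallest possible 0.00794). The value was 24.6% without library 13 (exact p = 0.0556) and 24.0% without library 15 (exact p = 0.0635), so that leaving out either library lost the call at 0.05. Without libraries 1, 5 and 11 it was 55.3%, where the mean over all ways to divide the remaining libraries was 16.7%. Those 3 libraries were chosen by these same distances, so the higher value followed from the choice and is given with no test. The mean distance between libraries of a group was 0.575 at weaning and 0.506 after co-housing, with an exact permutation p of 0.690 for the difference. The mean distance between KO and WT libraries was 0.522 at weaning and 0.512 after co-housing, both under the 0.641 between the 2 times in KO mice.

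The expected number of variants in 10491 reads was 52.9, 131, 132, 124 and 113 in libraries 1 to 5 and 142, 116, 177, 189 and 210 in libraries 11 to 15. The groups overlapped in library 12 alone, which fell below 3 of the weaning libraries. The means were 111 ± 33.1 and 167 ± 37.7 (SD, n = 5 each), with an exact two-sided permutation p of 0.0397 that became 0.119 after Benjamini-Hochberg adjustment over the 3 diversity measures. The Shannon index was 3.33 ± 0.22 and 3.45 ± 0.42, and the inverse Simpson index 11.6 ± 1.94 and 12.4 ± 5.74, each with an adjusted exact p of 0.810.

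Bacteroidota was the leading phylum in 4 of 5 libraries at weaning and Firmicutes in 4 of 5 after co-housing. Bacteroidota held 60.6, 67.6, 65.0, 81.7 and 30.6% of bacterial reads in libraries 1 to 5 and 45.6, 17.4, 16.9, 38.8 and 21.4% in libraries 11 to 15. Firmicutes held 14.0, 17.2, 23.8, 5.97 and 47.8% at weaning and 39.4, 65.0, 59.9, 42.1 and 59.2% after co-housing. In both phyla library 5 was the weaning library that lay within the co-housed range. Mean shares were 61.1 ± 18.8% and 28.0 ± 13.3% for Bacteroidota and 21.7 ± 15.9% and 53.1 ± 11.5% for Firmicutes. Campilobacterota, here Helicobacter alone, held 1.68 to 8.43% at weaning and 8.58 to 11.6% after co-housing without overlap, and Proteobacteria averaged 4.34 ± 3.26% and 0.924 ± 0.588%. By exact two-sided permutation tests with Benjamini-Hochberg adjustment over 10 phyla, 0 passed. The smallest adjusted p was 0.0794 for these 4 phyla, each with an unadjusted p under 0.05. Campilobacterota was at the smallest possible exact p of 0.00794, so no phylum could pass on its own after adjustment. Without library 5, 5 phyla passed: the same 4 and Deferribacterota, with exact adjusted p-values of 0.0265 to 0.0317. The differences were then -40.7 percentage points in Bacteroidota and 37.9 in Firmicutes. Library 5 was the weaning library closest to the co-housed ones, so leaving it out parts the groups and these p-values are no independent support. Without libraries 1, 5 and 11, 0 phyla passed. With 35 splits the smallest possible exact p was 0.0286, so no phylum could pass on its own after adjustment. The 0 is therefore not read as an absence of change. The other phyla were Deferribacterota, Verrucomicrobiota, Cyanobacteria, Desulfobacterota, Spirochaetota and Actinobacteriota, with mean shares from 0.00195 to 5.12%.

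**Figure D2:**
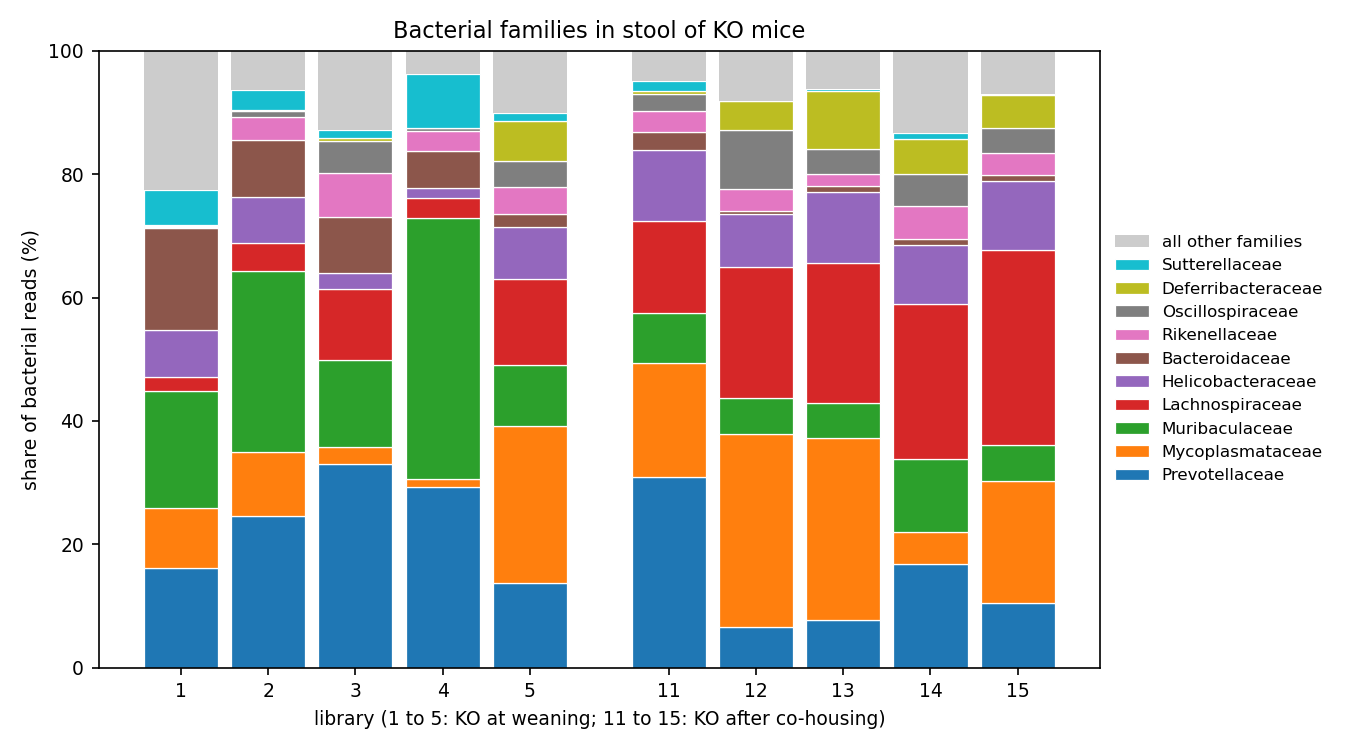
Stacked bars of the share of bacterial reads (%) held by the 10 families with the highest mean share, 1 bar per KO library, with all other families in grey. Lachnospiraceae holds 2.19 to 14.0% of the weaning libraries and 14.9 to 31.7% of the co-housed ones, and Muribaculaceae and Bacteroidaceae are narrower in most co-housed libraries.

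Among families, 8 of 35 tested (22.9%) changed by edgeR's quasi-likelihood test with Benjamini-Hochberg adjustment, 2 upward (5.71%) and 6 downward (17.1%). Of the 40 families, 34 were tested, and in 4 of these 34 (11.8%) the 2 groups did not overlap. Lachnospiraceae, a family of fibre-fermenting Clostridia, held 2.19, 4.57, 11.5, 3.31 and 14.0% at weaning and 14.9, 21.1, 22.7, 25.0 and 31.7% after co-housing. Every co-housed library lay above every weaning library, by a narrow margin between libraries 5 and 11. It rose by 1.51 ± 0.54 on the log2 scale (SE, adjusted p = 0.0344). The call was lost without library 1 (1.36, adjusted p = 0.0860), library 2 (1.50, 0.0631), library 4 (1.38, 0.0693) or library 15 (1.35, 0.0895). The other family that rose, Clostridia UCG-014, and the families that fell (Muribaculaceae, Bacteroidaceae, Tannerellaceae, Sutterellaceae, Akkermansiaceae and Enterobacteriaceae) are described through their genera.

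At the level of genera, 23 of 72 tested (31.9%) changed between weaning and co-housing by edgeR's quasi-likelihood test with Benjamini-Hochberg adjustment at 0.05. Of these, 14 rose (19.4%) and 9 fell (12.5%). The 80 genus names with reads in KO stool gave 68 tested genera, and the other 4 tested had reads in other groups alone. The median change over all 72 was 0.74 on the log2 scale with the main scaling and 0.40 with DESeq2's size factors, under which 8 genera rose and 9 fell. The genera that lost their call there were Odoribacter, Mucispirillum, Roseburia, RF39, UCG-005 and Intestinimonas, and no called genus turned direction. DESeq2 called 17 genera, of which 16 were among the 23, and limma-voom 19, of which 15 were. Both lost Marvinbryantia, RF39, UCG-005, Intestinimonas and A2. DESeq2 also lost Mucispirillum and gave unclassified Tannerellaceae no adjusted p, and limma-voom lost unnamed Muribaculaceae, Odoribacter and GCA-900066575. The count was 15 without library 1, 14 without library 4, and 25 without libraries 1, 5 and 11, of which 19 were among the 23. In bulk stool reads, fewer cells of a genus and less DNA per cell cannot be told apart, and a share can fall because others grow.

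The genera that fell were mostly Bacteroidales, gut anaerobes that degrade plant and host polysaccharides. Bacteroides held 16.5, 9.11, 9.05, 5.95 and 2.02% in libraries 1 to 5 and 2.97, 0.578, 1.02, 1.01 and 0.930% in libraries 11 to 15. The groups overlapped where library 11 exceeded library 5. Bacteroides fell by 2.85 ± 0.74 (log2, SE; edgeR adjusted p = 0.00236), from 8.51 ± 5.30% to 1.30 ± 0.95%. Parabacteroides, a relative of Bacteroides, held 4.16, 0.487, 0.911, 0.737 and 0.305% at weaning and 0.0942, 0.149, 0.119, 0.0580 and 0.0227% after co-housing. All 5 co-housed libraries lay below all weaning libraries. It fell by 3.90 ± 1.02 (adjusted p = 0.00236), and fell by 3.00 without library 1 (adjusted p = 0.0306), which lowered the weaning mean from 1.32 to 0.610%.

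Muribaculum and the unnamed genera of its family, Muribaculaceae, also fell. This family of carbohydrate degraders is a leading Bacteroidales family of the mouse gut. Its unnamed genera held 11.1, 27.9, 14.0, 39.1 and 8.66% at weaning and 7.89, 5.71, 5.54, 11.5 and 5.57% after co-housing. Library 14 was the co-housed library that reached into the weaning range. They fell by 1.95 ± 0.60 (edgeR adjusted p = 0.00995), a call that was lost without library 4 (-1.06, adjusted p = 0.145). Muribaculum held 7.81, 1.37, 0.211, 3.19 and 1.21% at weaning and 0.168 to 0.386% in the 5 co-housed libraries. Library 3 was the weaning library at the co-housed level. Muribaculum fell by 3.80 ± 0.90 (adjusted p = 0.00142), and fell by 3.27 without library 1, where the weaning mean was 1.50 instead of 2.76%. Unclassified Tannerellaceae, with 4.40% in library 1 and at most 0.0940% elsewhere, fell by 6.35 ± 1.68 (adjusted p = 0.00246), but the call was lost without library 1 (-3.02, adjusted p = 0.147). Without library 11 its co-housed mean was 0.00365 instead of 0.00998% and the change -7.26.

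Akkermansia, a bacterium that lives on mucin, was present in every KO library at weaning and absent after co-housing. It held 5.68, 0.731, 0.0705, 1.01 and 0.210% of libraries 1 to 5, and had 0 reads in libraries 11 to 15. All of these reads belonged to 1 variant (row 4 of the table). Against a floor of 3 counts per library the mean share was at least 124-fold lower after co-housing (edgeR adjusted p = 2.09e-06), and at least 40.9-fold lower without library 1. In WT mice Akkermansia averaged 0.00212% at weaning and had 0 reads after co-housing.

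The Proteobacteria that fell were Parasutterella, a gut genus that uses little sugar, and Escherichia-Shigella, a facultative anaerobe. Parasutterella held 5.58, 3.20, 1.35, 8.75 and 1.31% at weaning and 1.69, 0.0622, 0.294, 0.899 and 0.243% after co-housing. The highest co-housed value, in library 11, exceeded the 2 lowest weaning values. Parasutterella fell by 3.24 ± 0.87 (edgeR adjusted p = 0.00256), lost its call without library 4 (-2.19, adjusted p = 0.0541) and fell by 3.88 without library 11, with a co-housed mean of 0.374 instead of 0.637%. Escherichia-Shigella had reads in libraries 1 (0.856%) and 2 (0.0587%) alone, and its call (adjusted p = 0.00236) was lost without library 1 (0.0514). Marvinbryantia, a Lachnospiraceae genus, had reads in libraries 3 (0.0587%) and 4 (0.0272%) alone, and its call (adjusted p = 0.0416) was lost on leaving out any of 8 of the 10 libraries, with adjusted p-values of 0.0536 (library 1) to 0.0943 (library 4).

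The Lachnospiraceae NK4A136 group, a genus known mainly from sequences and common in the mouse gut, was the abundant genus that rose. It held 0, 1.04, 3.60, 0.474 and 4.74% in libraries 1 to 5 and 9.33, 12.8, 18.2, 15.7 and 18.8% in libraries 11 to 15. The lowest co-housed library lay well above the highest weaning library, so the groups did not overlap, and the means were 1.97 ± 2.08% and 15.0 ± 3.95%. The rise was 3.21 ± 0.78 (log2, SE; edgeR adjusted p = 0.00149), and 3.74 without library 5, which lowered the weaning mean to 1.28%. Together with Akkermansia, Parabacteroides and Helicobacter it was 1 of 4 among 68 genera (5.88%) whose groups did not overlap.

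Roseburia, a motile butyrate former of the same family, held 0, 0.138, 0.200, 0.124 and 0.477% at weaning and 0.291, 1.53, 0.406, 1.34 and 3.07% after co-housing. Library 5 lay above libraries 11 and 13. It rose by 2.78 ± 1.04 (edgeR adjusted p = 0.0362). The call was lost without library 1, 2, 3, 4 or 15, with adjusted p-values from 0.0595 (library 4) to 0.144 (library 15). Without library 5 the change was 3.21, from a weaning mean of 0.115 instead of 0.188%.

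Mucispirillum, a spiral bacterium of the mucus layer, held 0.213, 0.208, 0.435, 0.118 and 6.50% at weaning and 0.475, 4.63, 9.37, 5.75 and 5.36% after co-housing. Library 5 was at the level of the co-housed libraries and library 11 at the level of the weaning ones. The rise of 2.20 ± 0.86 (edgeR adjusted p = 0.0421) was 4.52 (0.000376) without library 5, where the weaning mean was 0.243 instead of 1.49%. Without library 1, 2, 3, 4, 13, 14 or 15 the call was lost, with adjusted p-values of 0.0632 (library 14) to 0.185 (library 13). Tested as the family Deferribacteraceae, the same reads were not called (1.77, edgeR adjusted p = 0.106). Odoribacter, a Bacteroidales genus that makes short-chain fatty acids, held 0.0815 to 0.446% at weaning and 0.122, 0.591, 0.224, 3.70 and 0.609% after co-housing. Its groups overlapped, and library 14 was far above the rest. The rise of 2.17 ± 0.79 (adjusted p = 0.0322) lost its call without library 1 (0.0532), library 4 (0.0670) or library 14. Without library 14 the co-housed mean was 0.386 instead of 1.05% and the change 0.77 (0.514). Odoribacter reads were also not called as the family Marinifilaceae (1.56, edgeR adjusted p = 0.0862).

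The remaining 10 genera that rose had 0 reads in all weaning libraries of KO mice and small shares after co-housing. Tuzzerella, a Lachnospiraceae genus, had 0.0903, 0, 0.211, 0.0725 and 0.165% in libraries 11 to 15, at least 6.89-fold above the floor of 3 counts per library (edgeR adjusted p = 0.000738). Clostridia UCG-014, a group known from sequences, had 0.0864, 0, 0, 0.802 and 0.0389% (at least 11.8-fold, adjusted p = 0.000641), or at least 2.00-fold without library 14. Unclassified Erysipelotrichaceae had 0.491, 0, 0.156, 0 and 0.0259% (at least 8.59-fold, adjusted p = 0.00197), or at least 2.90-fold without library 11. It had too few reads to be tested on the KO libraries alone, and entered the test through reads in other groups. These genera were present in 3 or 4 of the 5 co-housed libraries, and library 12 lacked all of them. Oscillospira (at least 3.74-fold, 1.96 without library 13), A2 (2.99), GCA-900066575 (2.63, 1.69 without library 15) and the NK4A214 group (2.58) were also in 3 or 4 libraries. Of these 4, Oscillospira was also called by DESeq2, by limma-voom and in a fit on the KO libraries alone. A2 was called in none of the 3 (adjusted p of 0.0546, 0.0640 and 0.0797), and the NK4A214 group was lost in the KO fit (0.0869). GCA-900066575 was lost by limma-voom (0.0813) and had too few reads to be tested in the KO fit. Intestinimonas, UCG-005 and RF39 had reads in library 15 alone, at 0.107, 0.0713 and 0.0681%. Their adjusted p-values of 0.0357 to 0.0394 rest on that library, without which they had 0 reads in KO stool. Their calls were also lost without library 1, 2, 3 or 4, at 0.0611 to 0.0906. Tested as a family, RF39 was not called (edgeR adjusted p = 0.0862).

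**Figure D3:**
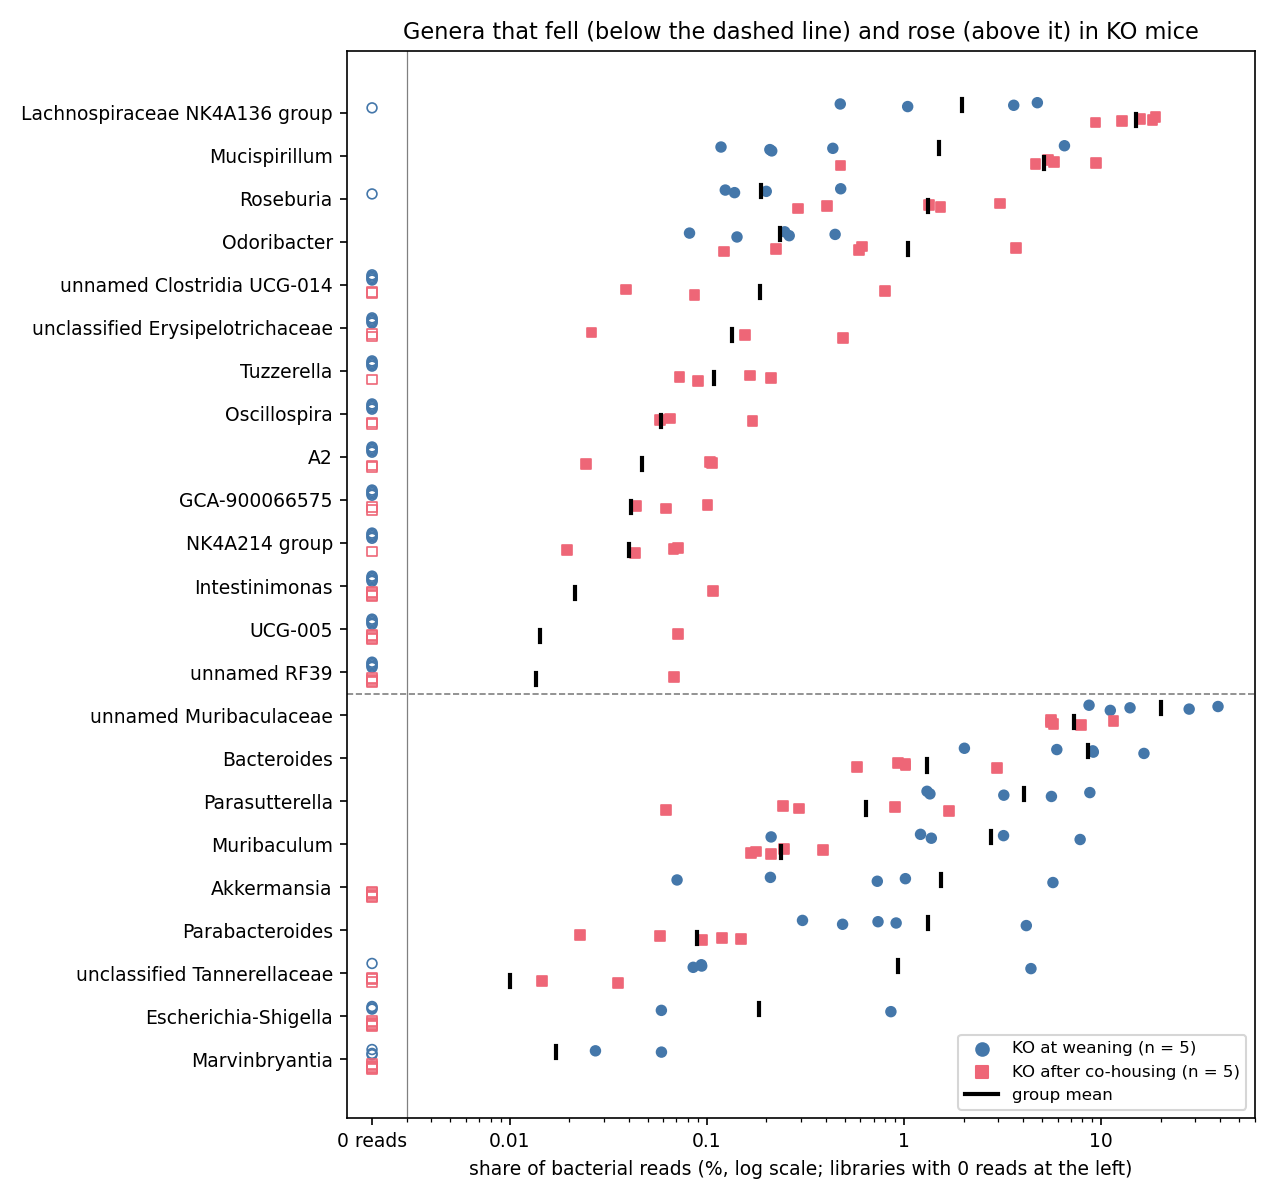
Share of bacterial reads (%, log scale) of each genus that changed, in the 5 weaning (circles) and 5 co-housed (squares) KO libraries; open symbols at the left have 0 reads and black bars are group means. Akkermansia, Parabacteroides and the NK4A136 group show no overlap, while the 10 genera that rose from 0 reads stay under 1% in every library.

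Several leading genera did not pass the test. Prevotellaceae UCG-001, the genus with the highest mean share, held 11.6 to 31.3% at weaning and 6.33 to 29.1% after co-housing (log2 change -0.92 ± 0.53; edgeR adjusted p = 0.167). Mycoplasma, which lacks a cell wall, held 9.14, 10.1, 2.54, 1.01 and 24.9% at weaning and 13.7, 31.1, 29.4, 5.08 and 19.5% after co-housing (1.24 ± 0.66; 0.136). The groups overlapped widely, with the highest weaning value again in library 5. Helicobacter, spiral bacteria of mucus and crypts, held 7.73, 7.50, 2.51, 1.68 and 8.43% and then 11.6, 8.58, 11.4, 9.55 and 11.1% (0.93 ± 0.58; 0.213). Its groups did not overlap, yet libraries 5 and 12 were close. Unclassified Lachnospiraceae held 3.10 ± 2.74% and 3.93 ± 1.59% (0.44 ± 0.78; 0.691), so the rise of the family was not shared evenly by its members.

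At the level of single variants, 79 of 292 tested (27.1%) changed by edgeR's quasi-likelihood test with Benjamini-Hochberg adjustment, 66 upward (22.6%) and 13 downward (4.45%). Of the 376 variants, 271 were tested, and in 8 of these (2.95%) the groups did not overlap. All 66 that rose had 0 reads in KO stool at weaning, and 29 of them had reads in 2 or fewer co-housed libraries, so their calls rest on few libraries. The count is also sensitive to single libraries: it was 33 without library 1, 36 without library 4, 42 without library 2 or 3, 45 without library 5, 52 without library 14 or 15, and 7 without libraries 1, 5 and 11 together. Of the 66, 49 (74.2%) had reads in WT mice at weaning, against 65.5% of the 113 tested variants with 0 reads in KO mice at weaning. That share is near the background. A variant with 0 reads at weaning could not fall, which was so for 113 of the 271 tested. By family, 32 of 84 tested Lachnospiraceae variants rose and 1 fell, and 11 of 42 Oscillospiraceae rose and none fell. In the Clostridia vadinBB60 group 6 of 15 rose and none fell, but only 3 of its 19 variants had reads at weaning. In Muribaculaceae 2 rose and 5 fell of 42.

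The NK4A136 group was represented by more variants after co-housing than at weaning, and its largest variant was not the same in each library. It had 26 variants in KO stool, 8 with reads at weaning and all 26 after co-housing. At weaning a library held 0 to 7 of them, and after co-housing 9, 5, 14, 16 and 20 in libraries 11 to 15. The largest variant was row 291 in libraries 11 (3.54%) and 13 (7.24%), row 299 in library 12 (10.1%), row 243 in library 14 (6.97%) and row 293 in library 15 (4.30%). Of the 24 tested, 15 rose and none fell, but all 15 had 0 reads at weaning and could not fall. Rows 236, 237, 292, 293, 316 and 360 lost the call on leaving out any 1 weaning library. For row 293 the edgeR adjusted p was then 0.0612 (library 5) to 0.0681 (library 4). Row 243 had 0 reads at weaning and 1.95, 0, 0.105, 6.97 and 3.00% after co-housing, at least 154-fold above the floor (edgeR adjusted p = 0.00908), or 80.8-fold without library 14. Rows 234 and 355 were the NK4A136 variants found in all 5 co-housed libraries from 0 reads at weaning, at 0.151 to 0.285% (adjusted p = 0.0118) and 0.114 to 0.386% (0.0122), and were singled out after their values were seen.

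Within Bacteroides, variants moved in opposite directions. Bacteroides row 44 held 5.26, 0.831, 1.43, 0.679 and 0.400% at weaning and reads in library 13 alone after co-housing (0.0535%), and fell by 6.31 ± 1.83 (log2, SE; edgeR adjusted p = 0.0161). The change was -5.53 without library 1 and had 0 reads after co-housing without library 13. Row 45 held 11.2, 1.73, 2.84, 1.35 and 0.534% and then 0.134, 0.124, 0, 0.0773 and 0%, and fell by 5.54 ± 1.69 (adjusted p = 0.0192), a call that was lost without library 1 (-4.70, 0.0652). Row 48 had 0 reads at weaning and 1.06, 0, 0.350, 0.473 and 0.726% after co-housing, at least 33.3-fold above the floor (0.00208). Library 12 was again without it. In WT mice row 48 was present in all 5 libraries at weaning, at a mean of 2.43%.

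Prevotellaceae UCG-001 showed the same pattern beneath a genus share that did not pass the test. Row 22 made up nearly all of it in 9 libraries, at 10.9 to 30.3% at weaning and 6.29 to 28.7% after co-housing, but had 0 reads in library 1. In library 1 row 25 held 16.2% instead, against 0.230 to 0.999% in libraries 2 to 5 and 0 to 0.0435% after co-housing. Row 25 fell by 7.22 ± 1.90 (log2, SE; edgeR adjusted p = 0.0102), a call lost without library 1 (-4.88, 0.0855); without library 12 the change was -7.61, with a co-housed mean of 0.0109 instead of 0.0174%. Row 26 rose from 0 reads to 0.342, 0, 0.0292, 0.372 and 0.305%, at least 13.4-fold above the floor (0.00344). In WT mice at weaning row 26 was in all 5 libraries at a mean of 0.762%, and row 25 had 0 reads. In Lachnospiraceae UCG-001, row 270 had 0, 0, 1.20, 0.779 and 1.42% at weaning and 0 reads after co-housing (at least 54.9-fold lower, 0.0134). Row 396 had 0 reads at weaning and 1.07, 0, 0, 2.88 and 1.42% after co-housing (at least 68.7-fold, 0.00608, and 39.8-fold without library 14). Libraries 1, 2, 12 and 13 held neither, and with unpaired libraries a replacement within a mouse could not be observed.

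A count of presence, with no model, gave more variants gained than lost. Variants with 0 reads in all KO libraries at weaning and reads in at least 3 of 5 after co-housing numbered 41, and variants with the reverse pattern numbered 6. The 41 gained variants were 18 Lachnospiraceae (43.9%), 11 Oscillospiraceae (26.8%), 5 of the Clostridia vadinBB60 group (12.2%) and 7 of 5 other families. Of all 177 variants that had 0 reads in KO stool at weaning and reads after co-housing, these 3 families made up 41.8, 15.8 and 9.04%, so the share of Lachnospiraceae was near that background. They held 7.24, 1.41, 9.12, 17.2 and 13.9% of libraries 11 to 15, which contained 21, 8, 35, 36 and 41 of them. Library 12 thus had the fewest and library 15 all of them, and the count was 21 without library 13, 20 without library 14 and 15 without library 15, where 3 of 4 libraries were required. Of the 41, 28 (68.3%) had reads in WT mice at weaning and 40 (97.6%) in WT mice after co-housing. The shares were 48.0 and 74.6% among the 177, and 41.9 and 67.6% among the 136 of them found in 1 or 2 co-housed KO libraries. Of the 113 that were tested, 65.5% had reads in WT mice at weaning, but the filter for testing also counts WT reads. These sets were not matched on abundance, and the differences between them were not tested. The 6 lost variants were Akkermansia row 4, Parasutterella row 423, Lachnospiraceae UCG-001 row 270 and 3 unnamed Muribaculaceae (rows 91, 108 and 118), which held 1.05 to 6.36% of the weaning libraries. There were 3 lost variants without library 1 and 3 without library 4.

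**Figure D4:**
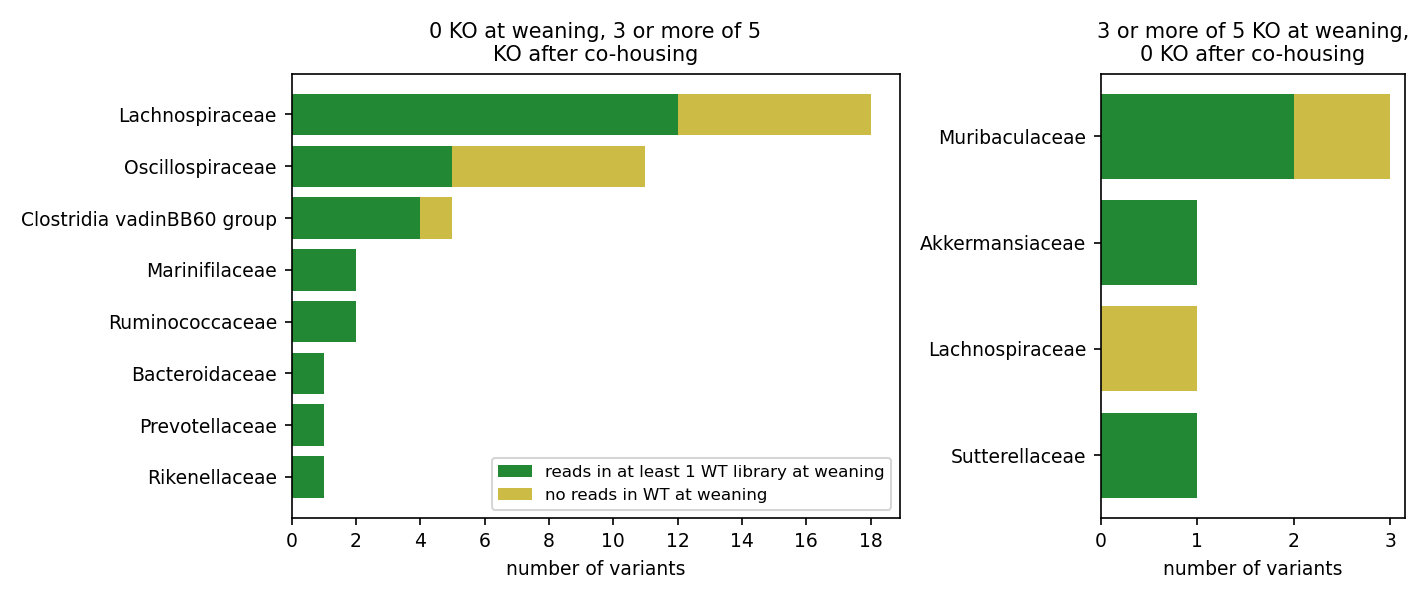
Number of variants per family that appeared in KO stool (left, 41 variants) or disappeared from it (right, 6 variants), coloured by whether any WT library at weaning held reads of them. Lachnospiraceae leads the left panel with 18, and 28 of the 41 (68.3%) had reads in WT mice at weaning. The share was 65.5% of the tested variants with 0 reads in KO mice at weaning. It was 41.9% of the 136 variants that appeared in 1 or 2 co-housed KO libraries.

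Variants were also sorted by where they were at weaning. Of 37 variants found in at least 3 WT and 0 KO libraries at weaning, 15 (40.5%) were in at least 3 KO libraries after co-housing, 18 in 1 or 2 and 4 in none. Together they went from 0 reads to 13.2 ± 7.90% of KO reads. Of 101 variants found in 1 or 2 WT and 0 KO libraries at weaning, 13 (12.9%) reached at least 3 KO libraries. Of 146 variants with 0 reads in both genotypes at weaning, all of which had reads in KO or WT mice after co-housing, 13 (8.90%) did. Of 18 variants found in at least 3 KO and 0 WT libraries at weaning, 8 (44.4%) were still in at least 3 KO libraries and 2 in none, and their share was 10.0 ± 6.93% and then 2.65 ± 2.47%. The 68 variants common to both genotypes at weaning were the ones most often found again, with 56 (82.4%) in at least 3 KO libraries after co-housing, and they still held 60.1 ± 9.10% of the reads, against 78.3 ± 10.8% at weaning. These counts are a description, and the shares were neither matched on abundance nor tested against each other.

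The lists of related bacteria are given beside the 68 tested genera with reads in KO stool, whose median change was 0.87 on the log2 scale, and the 271 tested variants, with a median of 1.54. Over all 72 tested genera 19.4% rose and 12.5% fell, and over all 292 tested variants 22.6% and 4.45%. In the order Bacteroidales 11 of 12 genera were tested, of which 1 rose (Odoribacter) and 5 fell (45.5%), with a median of -1.95. Its variants split evenly, with 10 up and 10 down of 76. In Lachnospiraceae 16 of 17 genera were tested, of which 5 rose (31.2%; the NK4A136 group, Roseburia, Tuzzerella, A2 and GCA-900066575) and 1 fell (Marvinbryantia), with a median of 0.77. In the order Oscillospirales, relatives that include many butyrate formers, 4 of 13 tested genera rose (30.8%) and none fell, with a median of 1.16. They were the NK4A214 group, Oscillospira, UCG-005 and Intestinimonas. The calls of UCG-005 and Intestinimonas rest on library 15, the KO library that held all their reads, so the share that rose is not firm. The summed share of the order was 3.06 ± 3.18% and 6.32 ± 2.60%. Butyrate-forming Clostridia held 0.438 to 2.19% at weaning and 1.75 to 4.28% after co-housing. Of their 7 tested genera 2 rose (28.6%; Roseburia and Intestinimonas), with a median of 2.67. Both calls were lost without library 15.

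The smaller lists stand beside the same 19.4% up and 12.5% down over all tested genera. Of the 4 mucus-associated genera, all tested, Mucispirillum rose and Akkermansia fell. Their summed share was 2.87 to 15.2% at weaning and 12.0 to 20.8% after co-housing, most of it Helicobacter. Proteobacteria with Desulfobacterota, the group that holds enterobacteria and sulphate reducers, had 3.64 to 9.28% at weaning and 1.34 to 3.13% after co-housing without overlap. Of its 7 tested genera 2 fell (Parasutterella and Escherichia-Shigella) and none rose, yet the median change was 0.70 on the log2 scale. Most of the lower sum was Parasutterella, with means of 4.04% and 0.637%, while Desulfobacterota averaged 1.62% and 1.34%. Bacteria without a cell wall held 1.18 to 25.5% and 5.21 to 31.3%. RF39 was the 1 of 3 tested genera that rose, with KO reads in library 15 alone. In Erysipelotrichales 1 of 3 tested genera rose, with a summed share of 0 to 0.0876% and then 0 to 0.554%, highest in library 11. Lactic acid bacteria and bifidobacteria held 0.0667 to 0.390% and 0.0311 to 1.07%, and their 1 tested genus did not pass.

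Of the 23 genera called in KO mice, 9 were also called in WT mice sampled at the same times. A call in KO mice alone does not show that the genotypes differ, which is tested separately below. By edgeR's quasi-likelihood test with Benjamini-Hochberg adjustment, 21 of 72 genera (29.2%) changed in WT mice, 15 upward (20.8%) and 6 downward (8.33%), and 9 genera were called in the same direction in both genotypes, which is 39.1% of the KO calls and 42.9% of the WT calls. These were Bacteroides, Parasutterella and unnamed Muribaculaceae, which fell, and the NK4A136 group, Mucispirillum, Roseburia, A2, Oscillospira and Intestinimonas, which rose. None was called in opposite directions. The NK4A136 group averaged 1.88% and then 14.7% in WT mice, next to 1.97% and 15.0% in KO mice. At the level of variants 2 of 292 (0.685%) passed in WT mice, against 79 in KO mice, while 96 and 130 had an unadjusted p under 0.05. The counts depended on the tool. DESeq2 called 24 variants in WT and 54 in KO mice, with no adjusted p for 91 and 63, and limma-voom called 56 in WT and 39 in KO mice. The difference between the genotypes was not tested for variants.

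The change differed between the genotypes in 3 of 72 genera (4.17%) by the interaction contrast of edgeR's quasi-likelihood test, with 16 at an unadjusted p under 0.05. Ureaplasma, a relative of Mycoplasma without a cell wall, held 0.573, 0.349, 0.112, 0.169 and 0.543% in KO mice at weaning and 4.77, 0.205, 0.0219, 0.130 and 0.263% after co-housing, so that library 11 alone was above the weaning range. In WT mice it went from a mean of 1.36% to 0.202%. The difference between the changes was 4.84 on the log2 scale (adjusted p = 0.00902), but 2.14 (0.269) without library 11. Clostridia UCG-014 (adjusted p = 0.00159) and unclassified Erysipelotrichaceae (0.00159) had 0 reads in KO mice at weaning and means of 0.150 and 0.0505% in WT mice at that time. After co-housing Clostridia UCG-014 averaged 0.185% in KO and 0.0923% in WT mice, and unclassified Erysipelotrichaceae 0.134% and 0.0136%. Without library 14 the KO mean of Clostridia UCG-014 was 0.0313%, below the WT mean, and without library 11 the KO mean of unclassified Erysipelotrichaceae was 0.0454%. Among families 1 of 35 (2.86%) differed, Clostridia UCG-014, with 8 at an unadjusted p under 0.05. The count of genera was 8 without library 4, 6, 8 or 12, 7 without library 19, 6 without library 10 and 5 without library 13. Without libraries 1, 5 and 11, Clostridia UCG-014 alone passed (adjusted p = 0.0126), and without library 14 its adjusted p was 0.0157. With DESeq2 8 genera passed, all 3 among them. With limma-voom 2 did: unclassified Erysipelotrichaceae and Akkermansia, but not Ureaplasma (adjusted p = 0.226) or Clostridia UCG-014 (0.213, and 0.293 as a family). Both genotypes had 0 Akkermansia reads after co-housing, so edgeR's contrast could not be estimated for it. It was called by DESeq2 (adjusted p = 0.0325) and limma-voom (0.00145), with a fitted size that depends on how 0 counts are treated.

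**Figure D5:**
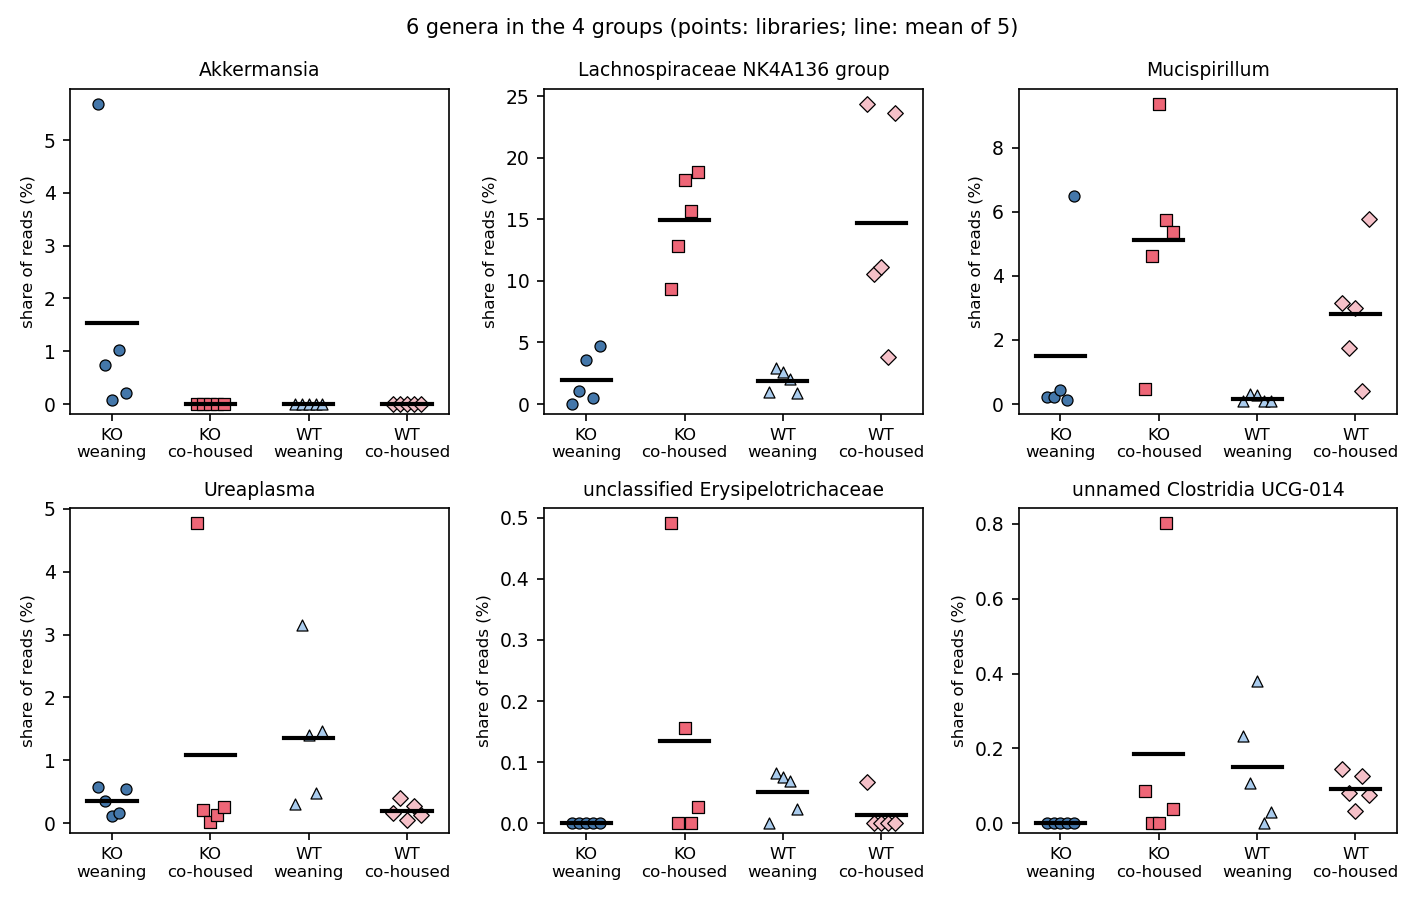
Share of bacterial reads (%, linear scale, a separate range in each panel) of 6 genera in the 4 groups, each point 1 library and each line the mean of 5. The NK4A136 group and Mucispirillum are higher after co-housing in both genotypes, Akkermansia is above 1% in 2 KO libraries at weaning alone, and the KO mean of Ureaplasma after co-housing is set by library 11.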

How the data were processed

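Stool DNA gave 16S amplicons of the V4 region, read as pairs on an Illumina MiSeq, per the labels' protocols. The deposited values are counts, whole reads per variant and library, not normalized by the authors. Per the submitters' processing notes, R 4.5.1 and limma were used, for steps they do not specify. Denoising settings, taxonomic reference and read filters were not given in the sources used here. Only variant names to genus are deposited, so a variant is called by its row, counted from 1 below the header. Counts of 1 were nearly absent, so low counts may have been removed and bounds against 0 reads may be too high.

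Here mitochondrial variants were left out, counts were summed to genera and families, and the robust quasi-likelihood test (glmQLFTest) of edgeR 4.0.16 under R 4.3.3, with TMMwsp factors and Benjamini-Hochberg adjustment at 0.05, was fitted with 1 coefficient per group. Genera and families used all 30 libraries, variants the 20 from weaning and co-housing, because no variant was shared with the other 10. A feature was tested if 3 or more libraries held 10 or more of its reads. Bounds use the mean share against the mean floor of 3 counts per library. Composition, diversity and phyla used exact permutation tests (Python 3.11.15, numpy 2.4.6, scipy 1.17.1). Code was tested on simulated data. Alternatives were other scalings and filters, DESeq2 1.42.0, limma-voom (limma 3.58.1), fits on fewer libraries and leaving out libraries. Described were called genera and variants with the largest or firmest changes, leading genera and variants, called families, all phyla, and gained and lost variants. The comparison, the lists and this rule were chosen with earlier results of these data known.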

Additional observations from a re-analysis of the deposited data

Results flagged for a closer look

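In 27 of 146 sets of 5 libraries the highest or lowest library stood off by more than Dixon's critical gap. Chance gives about 1 in 20 for independent, normally distributed sets. The shares here are skewed, and 1 library alone with reads always gives a gap of 1.0. Sets of a genus, its variant and its phylum also repeat each other, so the 27 cannot be set against that rate. The gap is given below as a fraction of the set's range. Library 1 was the lowest in richness (gap 0.762, at 52.9 variants) and the highest at weaning in Verrucomicrobiota (0.840), Akkermansia and its row 4 (0.832 each), Escherichia-Shigella (0.931), unclassified Tannerellaceae and its row 132 (0.979 each), Parabacteroides (0.843) and its row 53 (1.0), Prevotellaceae UCG-001 row 25 (0.952), Bacteroides row 44 (0.789) and Bacteroides row 45 (0.783). Library 5 was the highest at weaning in mitochondrial reads (0.913), Deferribacterota and Mucispirillum (0.950 each), Mucispirillum row 146 (0.954) and Spirochaetota (1.0).

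After co-housing, library 11 was the highest in Bacteroides (0.817) and library 12 in Cyanobacteria (0.809). Library 13 was the highest in NK4A136 group row 246 (0.894) and Bacteroides row 44 (1.0). Library 14 was the highest in Clostridia UCG-014 (0.892) and Odoribacter row 97 (0.940). Library 15 held all co-housed KO reads of Intestinimonas, UCG-005, RF39 and Actinobacteriota (1.0 each).

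The change from weaning to co-housing differed between KO and WT mice by edgeR's interaction test in Ureaplasma (log2 difference 4.84, adjusted p = 0.00902, and 2.14, 0.269, without library 11), unclassified Erysipelotrichaceae (11.2, 0.00159) and Clostridia UCG-014 (10.1 as a genus, 0.00159, and 9.57 as a family, 0.00777). Fitted differences that involve a group at 0 reads depend on the prior count and are no measure of size. Mitochondrial reads, used in no comparison, averaged 0.435% of all reads in co-housed and 0.166% in weaning KO libraries.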

How the results depend on the processing

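With 5 libraries a group and as few as 10491 reads, calls of rare variants are limited by depth and those of many features by single libraries. Of the genera, 15 were called when the filter used the KO libraries alone and 11 when the fit did, and leaving out 1 KO library gave 14 to 27. Variants called were 44 and 43 under the same settings, 39 by limma-voom, 33 to 82 on leaving out 1 KO library and 7 without libraries 1, 5 and 11, where 13 families were called. Between 3 and 8 genera differed in their change between KO and WT on leaving out 1 library, with 8 by DESeq2 and 1 without libraries 1, 5 and 11. On leaving out 1 KO library, composition ranged from 24.0 to 35.3%, the difference in richness from 41.8 to 69.0 variants (past the threshold without library 12), phyla passing from 0 to 5, gained variants from 15 to 46 and lost variants from 3 to 9. Presence in 5 of 5 libraries gave 3 gained and 1 lost variant, and 3 were lost without libraries 1, 5 and 11. The causes were not tested. Of the 23 genera called, 9 kept the call in every setting in which they were tested, and 12 in all 10 fits that left out 1 KO library. Intestinimonas, UCG-005 and RF39 have no fold without library 15, since both groups are then at 0. No paired analysis was possible because the labels give each library its own number, which no 2 groups share.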
